A study of Mus musculus with 8 samples.

Results

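The comparison described here set liver RNA from mice given a virus with a short hairpin RNA against Rictor (shRictor) beside liver RNA from mice given the matching control virus (lacZ2). Its members were the count tables of the 2 libraries labelled shRictor and the 2 labelled lacZ2, 4 of the 8 libraries in the series, over every gene the tables list. All 4 libraries came from whole livers of lean wild-type C57BL/6 mice 4 months old, kept on a cycle of 12 h light and 12 h dark with free access to food. Each animal had been injected with 0.1 OD of adenovirus, and the liver was taken 1 week later, after 6 h without food. The labels give the shRictor animals as a Rictor knockdown and lacZ2 as their control. They leave unsaid what the lacZ2 virus expressed (lacZ itself or a hairpin to it), which liver cells took up virus, and whether 2 libraries of a group stand for 2 animals. Every p-value below therefore sets a difference against a spread between libraries of a group that may be technical. In the main fit that spread was estimated over all 8 libraries. The other 4 libraries, a hairpin against the chaperone gene Dnajb9 (shDnajb9) and its control lacZ1 in mice 3 months old, entered the same fit and served as a second comparison.

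Rictor encodes the subunit that defines mTOR complex 2, the form of the mTOR kinase that does not contain raptor. The complex phosphorylates kinases of the AGC family, among them AKT, SGK1 and several forms of protein kinase C, and so sets how far insulin activates AKT. In hepatocytes active AKT keeps the transcription factor FoxO1 out of the nucleus, which lowers transcription of gluconeogenic genes such as G6pc and Pck1, and it favours the SREBP1c programme of fatty acid synthesis. The series title names the link between a chaperone, mTOR complex 2, nutrient sensing and energy metabolism as the subject.

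Counts assigned to genes summed to 6727294 and 10464225 in the lacZ2 libraries and to 9255887 and 11383532 in the shRictor libraries. Reads without a unique alignment made up 24.59% and 24.23% of the lacZ2 entries against 32.69% and 26.72% of the shRictor entries. Entries outside any annotated feature were 32.25% and 23.04% against 26.41% and 23.14%. The noncoding RNA genes Rn45s and Rpph1 took 2.6% and 4.26% of gene counts in lacZ2 replicate 1, more than in each other library compared. TMM scaling factors were 1.28 and 1.13 in lacZ2 against 0.9184 and 0.8985 in shRictor. The part of these differences in the results was not tested. Replicates differed beyond counting error, since the chi-square statistic divided by its degrees of freedom was 51.98 in lacZ2 and 43.75 in shRictor. Levels are given below in CPM, normalised counts per 1e6 counts. The Y-linked helicase gene Ddx3y stood at 77.5 and 69.0 CPM in the control and 109 and 85.7 CPM in the hairpin libraries, so male RNA was present in all 4. The summed level of 16 hepatocyte markers was 32450 and 58120 CPM in the control and 86430 and 86070 CPM in the hairpin libraries. It was lowest in lacZ2 replicate 1 and higher in both shRictor libraries than in either control. This sum moved with the comparison and with the hepatocyte gene groups that rose below, and against the groups that fell. Its part in those results was not tested. In whole tissue, fewer cells of a type and less RNA per cell cannot be told apart.

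Rictor itself, on chromosome 15 (chr15:6708379-6800401, plus strand, mm10), was measured at 52.3 and 65.2 CPM in the lacZ2 libraries and at 40.1 and 42.0 CPM in the shRictor libraries. Both shRictor values lay below both control values, as did those of 31.6% of all genes tested. The log2 fold change was -0.52 with a standard error (SE) of 0.281, and the quasi-likelihood test of edgeR gave an adjusted p of 0.231, so the difference did not pass the threshold of 0.05. In the shDnajb9 libraries the Rictor value was -0.46 against lacZ1, with an adjusted p of 0.239. The target transcript thus lay on the side that the label gives, without passing the test. By p it ranked 5275 among the 13767 genes tested, so these values do not show a knockdown of the transcript.

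The other subunits of the mTOR complexes stayed below the threshold, except 1. Of 11 complex subunits and partners tested, 1 rose and 0 fell, with a median log2 fold change of 0.20, or -0.20 where libraries were scaled by total count alone. Over all 13767 genes tested, 18.2% were called, 7.31% as higher and 10.9% as lower, and the median was -0.02. The member that rose was Deptor (chr15:55112317-55259271), whose product binds mTOR and inhibits its kinase activity. It stood at 69.0 and 90.8 CPM in lacZ2 and at 347 CPM in both shRictor libraries. The groups were far apart and the shRictor libraries equal, and the log2 fold change was 2.12 (SE 0.285, adjusted p = 0.000414). Mtor, the kinase, was measured at 179 and 194 CPM with the control virus and 107 and 297 CPM with the hairpin, which bracket the control values. Mapkap1, the mSIN1 subunit of complex 2, had a log2 fold change of 0.33 (adjusted p = 0.32). Rptor, the raptor subunit of complex 1, had 0.49 (adjusted p = 0.38), and Mlst8, shared by both complexes, had -0.37 (adjusted p = 0.454), with 22.5% of its exon bases overlapping another gene. None of these 4 genes was called, and shRictor replicate 2 held the higher value of both Mtor and Rptor.

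In the whole comparison 2508 of 13767 genes were called, 1006 higher and 1502 lower in shRictor. Of these, 756 of the higher and 1249 of the lower genes differed by 2-fold or more, and 27 and 96 by 10-fold or more. All 2508 had non-overlapping libraries, which held for 60.4% of the genes tested whether or not they were called. Without lacZ2 replicate 1 the calls were 314 higher and 739 lower, without shRictor replicate 1 they were 472 and 684, and without shRictor replicate 2 they were 529 and 788. The 750 genes that stayed called in the same direction whichever of the 4 libraries was left out, 244 higher and 506 lower, were 29.9% of the calls. With total count scaling the split was 436 higher and 2810 lower, because that scaling moved the median of all genes to -0.42. Directions below are relative to the median of all genes.

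**Figure D1:**
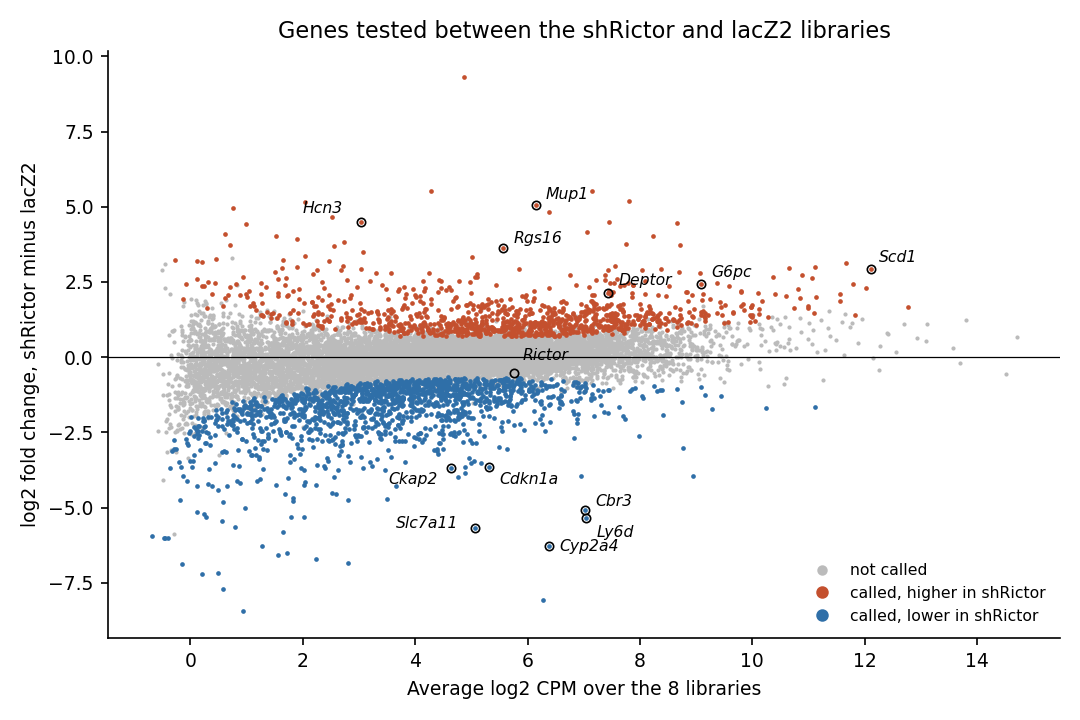
Each point is 1 of the 13767 tested genes, with the average log2 CPM over the 8 libraries on the horizontal axis and the log2 fold change of shRictor minus lacZ2 on the vertical axis. Called genes are coloured by direction and 13 genes are circled and named. Rictor, at -0.52, lies inside the band of genes that were not called, while among the named genes Cyp2a4 lies lowest and Mup1 highest, with some unnamed called genes beyond both.

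The 12 higher genes with the smallest adjusted p included several that hepatocytes are known for. Rgs16, a regulator that switches off G protein signals and is known in liver for its response to fasting, rose from 9.65 and 10.2 CPM to 119 and 130 CPM. Its log2 fold change was 3.64 (SE 0.311, adjusted p = 4.84e-05). Extl1, a glycosyltransferase of heparan sulphate synthesis, rose from 0.93 and 0.846 to 11.9 and 13.7 CPM. Ido2, a tryptophan-degrading enzyme, rose from 12.7 and 19.5 to 85.4 and 86.4 CPM, with a log2 fold change of 2.41. In each of these 3 genes the replicates of a group lay close together and the groups far apart. Car5a, the mitochondrial carbonic anhydrase that supplies bicarbonate to the urea cycle, rose by 2.32 on the log2 scale, although 23.4% of its exon bases overlap another gene. Hcn3, a cation channel, went from 0.582 and 1.44 to 33.7 and 15.1 CPM. The remaining 7 were Ces3b (26.1% of its 50-base stretches shared with another gene, and so uncertain), Lrit1, P2ry4, Mup1 (94.8% shared, and so uncertain as well), Sntg2, Acpp and Dpy19l3, with log2 fold changes of 2.16 to 5.05.

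The 12 lower genes with the smallest adjusted p were led by Cyp2a4, a steroid 15-alpha-hydroxylase that is higher in female than in male mouse liver. It fell from 189 and 199 CPM to 2.59 and 2.35 CPM, -6.29 ± 0.438 on the log2 scale (SE, adjusted p = 3.63e-05), though 38% of its sequence is shared with a related gene. Ly6d, a surface protein of lymphoid and epithelial progenitor cells, fell from 423 and 197 to 6.47 and 8.61 CPM. The lowest control value exceeded the highest shRictor value by a wide margin in both genes. Gpnmb, a glycoprotein of lipid-laden macrophages and injured tissue, fell from 83.6 and 70.4 to 4.24 and 9.1 CPM. Golm1, a Golgi membrane protein, fell by 2.54 on the log2 scale, with 29.3% of its exon bases overlapping another gene. Also among them were Cbr3, Cox6b2, Ccne1, Mybl1, Ckap2, Prc1 and Prrg4, with log2 fold changes of -2.79 to -5.08. All 24 genes kept their calls whichever of the 4 libraries was left out, and all 24 had the same sign in the shDnajb9 comparison.

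Groups of genes were then read from 38 lists, of which 26 hold pathway genes and 12 hold markers of cell types. Each count is to be set against all genes tested, of which 7.31% were called higher and 10.9% lower. Where a list's count hung on 1 library, it is followed by 4 counts, for the fits without lacZ2 replicate 1, lacZ2 replicate 2, shRictor replicate 1 and shRictor replicate 2, in that order. Every called gene had non-overlapping libraries, so non-overlap of a called gene adds nothing to its call. A count of 0 is that of edgeR. For the lists with 0 genes called in a direction, at most 2 members a list had an unadjusted p under 0.05 in it, except 7 of the respiratory chain subunits, and DESeq2 called at most 1.

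Most insulin signalling genes were not called, and those called moved in both directions. Over all genes tested, 7.31% were called higher and 10.9% lower. Of 36 genes of the insulin pathway and the AGC kinases, 5 rose (1, 2, 3 and 1 without a library) and 3 fell (0, 2, 0 and 1), with a median of 0.22. Under total count scaling 1 rose and 6 fell, and the median was -0.19. Irs2, the insulin receptor substrate whose transcription FoxO1 raises in fasting liver, stood at 11.4 and 8.04 CPM with the control virus and 32.1 and 38.6 CPM with the hairpin. Its libraries did not overlap, and the log2 fold change of 1.87 (SE 0.351, adjusted p = 0.00319) kept its call without any 1 library. Insr, the insulin receptor, was measured at 121 and 118 CPM against 206 and 356 CPM, a log2 fold change of 1.24 (adjusted p = 0.0333). Without shRictor replicate 2 it was 0.79 (adjusted p = 0.251), and it also lost its call without lacZ2 replicate 1 (1.25, adjusted p = 0.15), without lacZ2 replicate 2 (1.24, adjusted p = 0.119) and under total count scaling (0.82, adjusted p = 0.165). Foxo1 behaved in the same way, at 39.5 and 35.0 against 56.9 and 87.0 CPM. Its log2 fold change of 0.95 (adjusted p = 0.0316) was 0.61 (adjusted p = 0.261) without shRictor replicate 2, 1.04 (adjusted p = 0.123) without lacZ2 replicate 1 and 0.88 (adjusted p = 0.149) without lacZ2 replicate 2. Under total count scaling it was 0.53 (adjusted p = 0.251). Of the kinases that mTOR complex 2 phosphorylates, Akt1 had a log2 fold change of -0.34 (adjusted p = 0.357), Akt2 0.68 (adjusted p = 0.108) and Sgk1 -0.26 (adjusted p = 0.526). Irs1, the other main receptor substrate, had 0.22 (adjusted p = 0.683). None of these 4 transcripts was called, although under total count scaling Akt1 was called lower (-0.76, adjusted p = 0.0485). For Irs1, 30.9% of the exon bases overlap another gene.

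**Figure D2:**
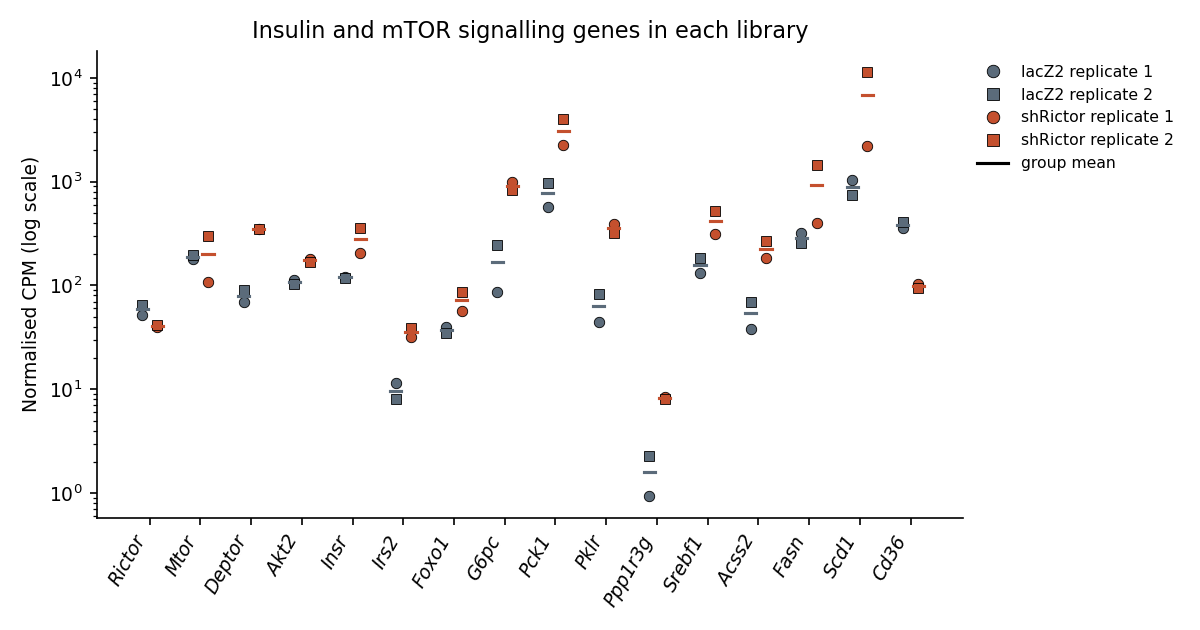
Points give the normalised CPM of 16 genes in each of the 4 libraries on a log axis, circles for replicate 1 and squares for replicate 2, with a short line at the group mean (n = 2). Deptor, Irs2, G6pc, Pklr, Ppp1r3g and Acss2 lie higher in both shRictor libraries and Cd36 lower, whereas Mtor brackets its controls and Scd1 and Fasn differ most between the shRictor replicates.

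Gluconeogenic genes were higher in shRictor. Of 25 genes of gluconeogenesis and known FoxO1 targets, 10 rose (3, 9, 8 and 4 without a library) and 2 fell (1, 2, 1 and 2), with a median of 0.79. In the shDnajb9 comparison 11 of the 25 rose and 2 fell, with a median of 0.5. G6pc (chr11:101367561-101377903), the catalytic subunit of glucose-6-phosphatase, was measured at 86.5 and 248 CPM with the control virus and 993 and 831 CPM with the hairpin. The control libraries differed widely, yet the groups did not overlap, and the log2 fold change was 2.45 (SE 0.452, adjusted p = 0.00276). Slc37a4, the transporter that carries glucose 6-phosphate to that enzyme, rose from 48.6 and 96.7 to 230 and 255 CPM, a log2 fold change of 1.74. Got1, the cytosolic aspartate aminotransferase, rose from 52.3 and 68.0 to 167 and 202 CPM, with a log2 fold change of 1.61. Pck1, the first committed enzyme of the pathway, stood at 568 and 978 against 2230 and 3980 CPM, a log2 fold change of 2.01 (adjusted p = 0.00838). It was 1.67 (adjusted p = 0.0545) without lacZ2 replicate 1 and 1.53 (adjusted p = 0.0894) without shRictor replicate 2. Members of the list did not all move together. Pdk4, the kinase that shuts pyruvate dehydrogenase in fasting, fell from 52.7 and 17.1 to 3.88 and 5.09 CPM, a log2 fold change of -2.94 that was -1.92 without lacZ2 replicate 1. Igfbp1, a binding protein for insulin-like growth factors that insulin represses, was at 22.8 and 27.4 against 18.6 and 38.7 CPM and its groups overlapped.

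Glycolysis and glycogen genes were divided. Of 23 glycolytic genes and glucose transporters, 4 rose (1, 5, 2 and 1 without a library) and 5 fell (3, 1, 1 and 3), with a median of 0.16, or 1 and 6 and -0.23 under total count scaling. Pklr, the liver form of pyruvate kinase, rose from 44.4 and 82.9 to 393 and 319 CPM, with 22% of its exon bases overlapping another gene. Its log2 fold change was 2.48 (SE 0.329, adjusted p = 0.000384). Pkm, the form of pyruvate kinase made by most other cells, fell from 361 and 352 to 79.6 and 92.4 CPM, although 34.4% of its sequence is shared with other genes. The liver form and the other form thus moved in opposite directions. Of 20 glycogen genes, 2 rose (1, 4, 2 and 1) and 1 fell, with a median of 0.03, and total count scaling gave 2 and 4 with a median of -0.37. Ppp1r3g, a glycogen-targeting subunit of protein phosphatase 1, rose from 0.93 and 2.29 to 8.36 and 8.02 CPM, a log2 fold change of 2.28. Pgm1, a phosphoglucomutase, fell from 14.3 and 15.8 to 6.36 and 6.65 CPM. It was the single glycogen gene called lower in the 8-library fit.

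Genes of fatty acid synthesis were higher, most of all in shRictor replicate 2. Of 25 lipogenic genes 14 rose (4, 11, 12 and 4 without a library) and 0 fell, with a median of 1.18. Total count scaling gave 8 higher and 1 lower. The summed level of the list was 4080 and 4561 CPM in the control and 8112 and 20610 CPM in the hairpin libraries, so the spread between the shRictor libraries exceeded the gap from the nearer one to the controls. Acss2, the acetyl-CoA synthetase of the cytosol and nucleus, rose from 38.0 and 69.4 to 182 and 268 CPM, 2.07 ± 0.333 on the log2 scale (SE, adjusted p = 0.00115). Thrsp, the spot 14 protein of lipogenic tissue, rose from 97.5 and 161 to 512 and 575 CPM. Aacs, which makes acetoacetyl-CoA in the cytosol, rose from 33.7 and 47.1 to 103 and 107 CPM. These 3 genes were higher to a like degree in both shRictor libraries, while the desaturase and the synthase were not. Scd1, the stearoyl-CoA desaturase, was at 1030 and 740 CPM with the control virus and 2190 and 11400 CPM with the hairpin. Its log2 fold change of 2.94 (adjusted p = 0.0129) was 1.31 (adjusted p = 0.207) without shRictor replicate 2, 3.20 (adjusted p = 0.0591) without lacZ2 replicate 1 and 2.74 (adjusted p = 0.0638) without lacZ2 replicate 2. Fasn, the fatty acid synthase, was at 317 and 258 against 400 and 1450 CPM and was not called, with 1.69 ± 0.55 on the log2 scale (SE, adjusted p = 0.05). Without shRictor replicate 1 it was 2.35 (adjusted p = 0.0125). Srebf1, which encodes SREBP1, was at 131 and 183 against 311 and 522 CPM. Its log2 fold change of 1.40 (adjusted p = 0.0159) was 1.19 (adjusted p = 0.124) without lacZ2 replicate 1 and 0.99 (adjusted p = 0.147) without shRictor replicate 2, and under total count scaling 1.01 (adjusted p = 0.0546).

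Lipid storage genes went the other way. Of 19 PPARG targets and lipid droplet genes, 0 rose and 5 fell (4, 4, 2 and 4 without a library), with a median of -0.39. With total count scaling 9 fell, at a median of -0.80. Pparg itself stood at 22.7 and 33.3 against 28.8 and 24.2 CPM, and its groups overlapped. Cd36, a fatty acid transporter, fell from 359 and 408 to 102 and 94.4 CPM, -1.96 ± 0.315 on the log2 scale (SE, adjusted p = 0.00113). Fabp4, a fatty acid binding protein of adipocytes and macrophages, fell from 19.3 and 12.4 to 2.83 and 3.52 CPM, a log2 fold change of -2.30. The adipocyte markers Adipoq, Lep, Plin1, Retn and Ucp1 were all below the count filter. The 3 adipocyte markers tested, Fabp4 among them, ran from -2.3 to 0.89 on the log2 scale, with a median of 0.31. Of 32 genes of fatty acid oxidation and ketogenesis, 1 rose (0, 3, 0 and 0) and 2 fell, with a median of 0.31 that was -0.08 under total count scaling, where 0 rose and 4 fell. Fgf21, a hormone of the fasted liver, fell from 7.09 and 4.82 to 1.29 and 0.489 CPM. Acot2, a mitochondrial thioesterase, fell from 80.7 and 75.3 to 10.4 and 14.7 CPM, with 27.7% of its sequence shared with its paralogs. Neither gene overlapped between the groups, as held for every called gene.

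Cholesterol and bile acid genes rose. Of 26 genes of cholesterol synthesis and SREBP2 targets 13 rose (3, 15, 9 and 6 without a library) and 0 fell, with a median of 0.94. Total count scaling left 6 higher, at a median of 0.56. Tm7sf2, a sterol reductase, went from 16.5 and 30.0 to 124 and 122 CPM, 2.40 ± 0.397 on the log2 scale (SE, adjusted p = 0.00153). Fdps, the farnesyl diphosphate synthase, went from 40.8 and 78.2 to 309 and 214 CPM, with 26.7% of its exon bases overlapping another gene. Stard4, a sterol carrier, went from 15.4 and 17.8 to 53.4 and 50.1 CPM. All 3 genes held in every fit without 1 library. Of 24 genes of bile acid synthesis and transport, 11 rose (7, 11, 8 and 7) and 2 fell (1, 2, 1 and 1), with a median of 0.91, or 7 and 2 and 0.52 under total count scaling. Cyp8b1, the hydroxylase that makes cholic acid, rose from 40.0 and 102 to 530 and 552 CPM, 2.93 ± 0.454 on the log2 scale (SE, adjusted p = 0.000979). Slc10a1, the uptake transporter for bile salts, rose from 25.8 and 104 to 547 and 418 CPM. Slco1a1, an organic anion uptake transporter, rose from 8.37 and 38.2 to 537 and 223 CPM, a log2 fold change of 4.02. In all 3 genes lacZ2 replicate 1 held the lowest value. Abcc4, which exports bile acids and drugs across the sinusoidal membrane, fell from 95.1 and 52.2 to 8.01 and 10.7 CPM.

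Of 32 genes of xenobiotic metabolism, 13 rose (6, 16, 7 and 7 without a library) and 2 fell (1, 1, 1 and 2), with a median of 0.86, and 11 of the 32 share sequence with a paralog. Cyp2c50, a P450 enzyme, rose from 10.2 and 44.0 to 490 and 248 CPM, 3.75 ± 0.588 on the log2 scale (SE, adjusted p = 0.00107). Nr1i3, the constitutive androstane receptor that drives such genes, rose from 40.8 and 47.7 to 123 and 124 CPM, but 74.9% of its exon bases overlap another gene. Of 27 genes known to depend on growth hormone, 16 rose and 0 fell, with a median of 1.76. Without a library 14, 18, 14 and 14 of them rose. The list is rich in genes that male mice express more, and 8 of the 27 share sequence with a paralog, the major urinary protein (Mup) genes above all. Mup21 rose from 6.28 and 11.7 to 241 and 84.9 CPM, 4.17 ± 0.529 on the log2 scale (SE, adjusted p = 0.000348). Nudt7, a peroxisomal coenzyme A hydrolase, rose from 50.2 and 72.8 to 363 and 282 CPM. Ghr, the growth hormone receptor, stood at 185 and 268 CPM with the control virus and 755 and 613 CPM with the hairpin. Igf1, the growth factor it induces, stood at 174 and 172 against 542 and 383 CPM. Both were called, at adjusted p-values of 0.00445 and 0.00581, and like every called gene they did not overlap between the groups. Igf1 was not called without shRictor replicate 1, where its log2 fold change was 1.15.

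**Figure D3:**
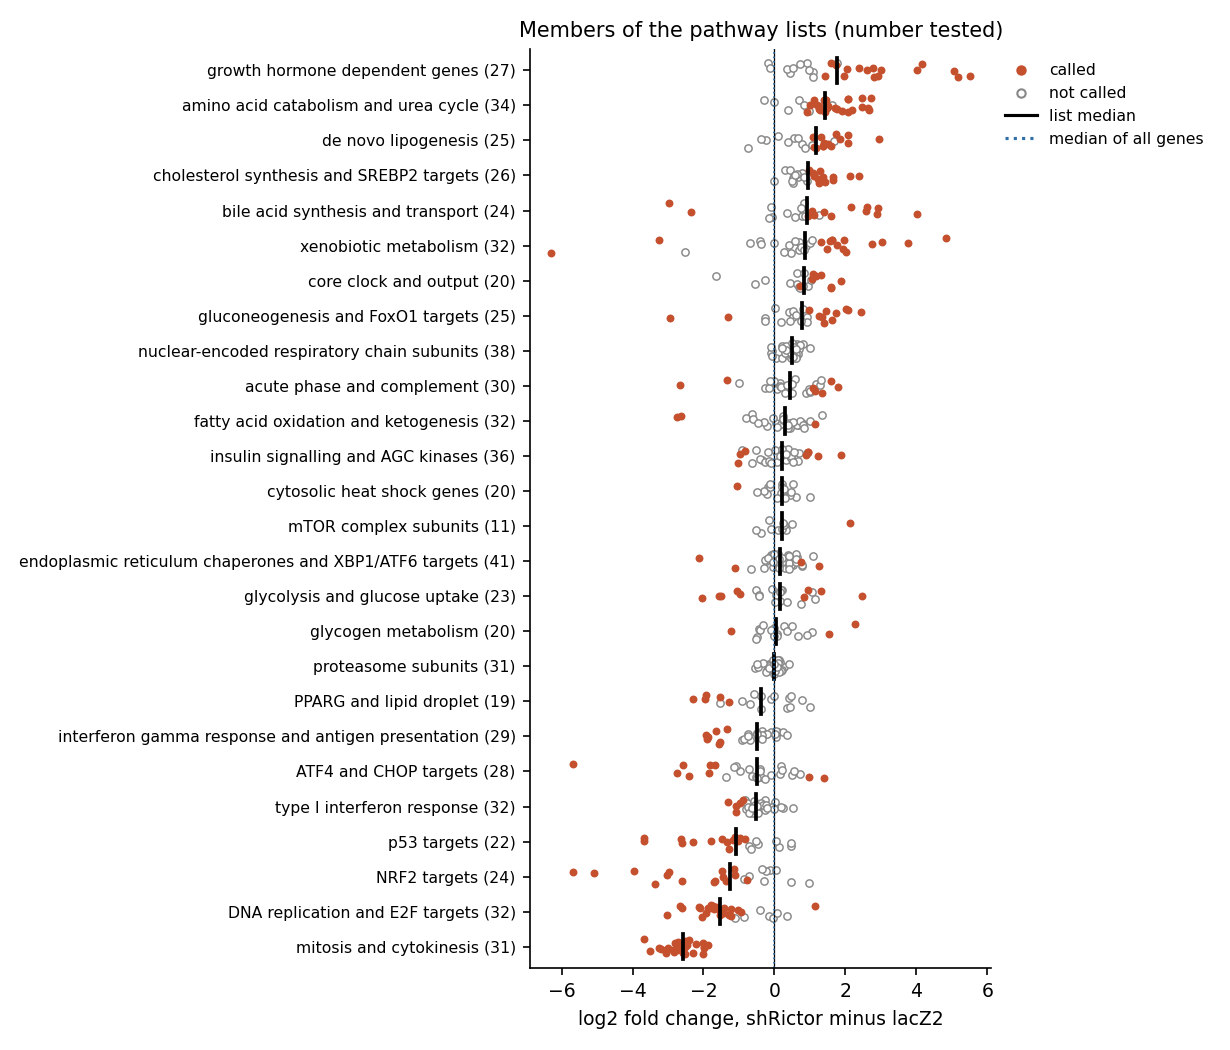
Each row is a pathway list with the number of members tested, and each point is a member's log2 fold change of shRictor minus lacZ2, filled where the gene was called. Black bars mark list medians and the dotted line the median of all genes, -0.02. Medians run from -2.58 for mitosis and cytokinesis to 1.76 for the growth hormone dependent genes, and no proteasome or respiratory chain subunit is filled.

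Amino acid catabolism held the largest count of higher genes of the 38 lists. Of 34 genes of amino acid breakdown and the urea cycle, 24 rose (12, 24, 18 and 14 without a library) and 0 fell, with a median of 1.42. Hal, the histidine ammonia-lyase, rose from 51.4 and 71.2 to 317 and 364 CPM, 2.47 ± 0.303 on the log2 scale (SE, adjusted p = 0.00025). Agxt, the alanine-glyoxylate aminotransferase, rose from 26.4 and 42.7 to 208 and 175 CPM. Gls2, the liver glutaminase, rose from 98.4 and 128 to 476 and 480 CPM. These replicates lay close together in shRictor, and so did those of Prodh, the proline dehydrogenase, at 226 and 242 CPM against 16.6 and 53.6 CPM. Cps1, the first enzyme of the urea cycle, had a log2 fold change of 1.43 and did not pass the threshold (adjusted p = 0.0644). Without lacZ2 replicate 2 it was 2.13 (adjusted p = 0.0207). Of 38 nuclear-encoded respiratory chain subunits, 0 rose and 0 fell, although their median was 0.50 and 29 of the 38 were higher in both shRictor libraries than in both controls, against 28.8% of all genes. The median was 0.09 under total count scaling, 2 rose without lacZ2 replicate 2, and 4 rose with a correction for gene length and GC content. In the shDnajb9 comparison 16 of the 38 rose.

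Of 20 genes of the circadian clock and its output, 8 rose (3, 6, 7 and 3 without a library) and 0 fell, with a median of 0.82. Under total count scaling 4 rose, with a median of 0.43, and with the length and GC correction 13 rose. Dbp rose from 27.3 and 32.1 to 89.0 and 91.8 CPM and Hlf from 13.1 and 15.9 to 42.9 and 45.9 CPM. Both are PAR bZIP factors of clock output, and in both the replicates nearly coincided. The labels give the light cycle and no hour of death, so time of day cannot be told apart from the hairpin. Of 30 acute phase and complement genes, 5 rose (1, 10, 3 and 2) and 2 fell (2, 2, 3 and 2), with a median of 0.44, against 2 and 3 under total count scaling. Crp, C-reactive protein, rose from 34.1 and 59.3 to 179 and 144 CPM, whereas Lcn2, lipocalin 2, fell from 232 and 145 to 16.8 and 42.2 CPM. Saa3, a serum amyloid A made outside as well as inside hepatocytes, fell from 67.1 and 50.8 to 22.8 and 23.5 CPM.

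Genes of cell division were lower without exception among those listed. All 31 genes of mitosis and cytokinesis fell, with log2 fold changes from -3.68 to -1.87 and a median of -2.58, where 10.9% of all genes were called lower. All 31 were also called lower in each fit without 1 library and in the shDnajb9 comparison. Their summed level was 1155 CPM in both lacZ2 libraries and 146.7 and 238.5 CPM in shRictor. Ckap2, a microtubule protein of the spindle, fell from 39.0 and 32.2 to 2.47 and 3.03 CPM, -3.68 ± 0.322 on the log2 scale (SE, adjusted p = 4.94e-05). Cdk1, the kinase that starts mitosis, fell from 34.1 and 32.3 to 4.47 and 5.58 CPM. Mki67, the Ki-67 protein of dividing cells, fell from 157 and 172 to 23.5 and 47.9 CPM. In all 31 genes the groups did not overlap, as in all 2508 called genes, so this adds nothing to the calls. Of all genes tested, 31.6% were lower in shRictor without overlap.

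**Figure D4:**
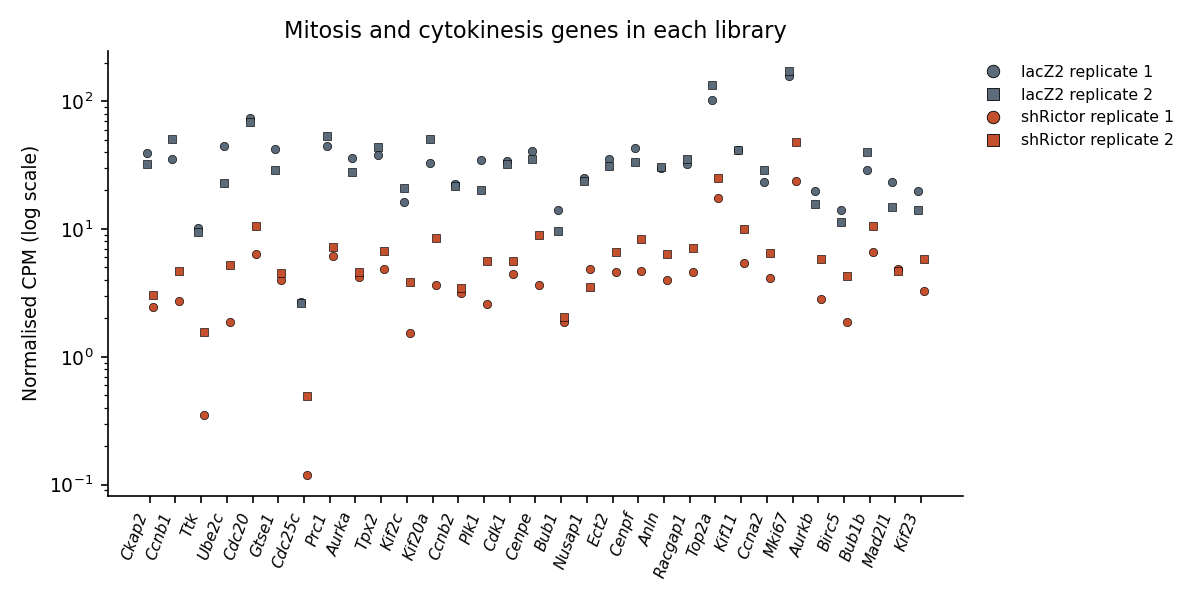
Points give the normalised CPM of the 31 mitosis and cytokinesis genes in each library on a log axis, ordered by log2 fold change, with circles for replicate 1 and squares for replicate 2. In every gene both shRictor values lie below both lacZ2 values, and shRictor replicate 2 lies above replicate 1 in 29 of the 31.

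Replication genes followed. Of 32 genes of DNA replication and E2F targets, 24 fell (18, 20, 18 and 19 without a library) and 1 rose (0, 1, 0 and 1), with a median of -1.53, or 27 and 0 and -1.93 under total count scaling. Ccne1, the cyclin of entry into replication, fell from 38.1 and 40.4 to 4.12 and 5.38 CPM, -3.04 ± 0.258 on the log2 scale (SE, adjusted p = 4.84e-05). Mcm5, a subunit of the replicative helicase, fell from 62.6 and 87.9 to 15.3 and 19 CPM. Uhrf1, which keeps DNA methylation through replication, fell from 29.3 and 36.7 to 6.12 and 9.2 CPM. None of these 3 overlapped between the groups, as held for every called gene.

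RefSeq promoters (GRCm38.p6, 250 bases before to 50 after each start) were then searched for the letters of known sites, on both strands. The letters TTTGAA of the cell cycle genes homology region (CHR), which the DREAM complex is known to bind, occurred in 21 of 29 promoters of the mitosis genes, 72.4%, against 17.9% of all 32851 promoters. CCAAT, the NF-Y site, occurred in 82.8% against 37.4%, and both in 65.5% against 6.95%. The E2F letters TTTCCCGC or TTTGGCGC occurred in 10 of 27 promoters of the replication list, 37.0%, against 1.56% of all promoters. The antioxidant response element TGACNNNGC occurred in 9 of 25 promoters of the NRF2 targets described below, 36%, against 12.4%. A match describes the letters in this window and is not a measured binding site. The lists were drawn up from known genes, among them targets of E2F and NRF2. A high share of these letters can thus follow from list membership alone and says nothing about these libraries. Among promoters of the tested genes the shares were 12.5% for CHR, 37.6% for CCAAT, 2.7% for E2F and 14.3% for the antioxidant response element. Promoters were found for 26 of 31 mitosis, 24 of 32 replication and 20 of 24 NRF2 members. The 120 bases before the start are shown for 4 genes, chosen after their values and sequences were seen as examples in which the letters precede the start, with those letters in capitals.
Top2a (chr11:99024190-99024309, minus strand, CHR and CCAAT): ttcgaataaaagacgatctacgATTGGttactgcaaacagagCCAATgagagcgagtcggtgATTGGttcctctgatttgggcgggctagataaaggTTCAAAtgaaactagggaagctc
Kif11 (chr19:37376262-37376381, plus strand, CHR and CCAAT): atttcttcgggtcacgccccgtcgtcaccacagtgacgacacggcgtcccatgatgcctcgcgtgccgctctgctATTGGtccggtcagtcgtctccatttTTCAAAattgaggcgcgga
Mcm6 (chr1:128359706-128359825, minus strand, E2F): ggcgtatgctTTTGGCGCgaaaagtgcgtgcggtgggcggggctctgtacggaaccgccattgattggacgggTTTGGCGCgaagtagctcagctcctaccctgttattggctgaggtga
Abcc4 (chr14:118706220-118706339, minus strand, antioxidant response element): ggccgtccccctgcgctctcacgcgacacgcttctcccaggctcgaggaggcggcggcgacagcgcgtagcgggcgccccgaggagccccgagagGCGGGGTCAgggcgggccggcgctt

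In Top2a, which encodes the topoisomerase that untangles sister chromosomes, the CHR letters began 23 bases before the start. Its level fell from 101 and 133 CPM to 17.4 and 24.8 CPM, a log2 fold change of -2.47. In Kif11, the motor that separates spindle poles, they began 19 bases before the start, and its level fell from 41.2 and 41.3 to 5.42 and 9.98 CPM. Mcm6, another helicase subunit, carries the E2F letters at 110 and 47 bases before the start and fell from 89.1 and 147 to 27.7 and 34.8 CPM. In Abcc4, called lower above, the element began 25 bases before the start. The sterol regulatory element TCACNCCAC occurred in 1 of 21 promoters of the cholesterol genes, 4.76%, against 1.24% of all. The insulin response sequence CAAAACA occurred in 3 of 24 gluconeogenic promoters, 12.5%, against 6.28%. The forkhead site GTAAACA occurred in 1 of these 24, 4.17%, against 3.65%. Among the 22 promoters of the clock genes, the E-box CACGTG occurred in 27.3% against 7.15%, and the PAR bZIP site TTATGTAA in 1, 4.55%, against 0.938%. The STAT5 letters TTCNNNGAA occurred in 6 of 31 promoters of the growth hormone dependent genes, 19.4%, against 8.3%. The palindromic HNF1 site occurred in 0 of those 31, against 0.00913% of all promoters, and the HNF4 letters CAAAGTCCA in 0 of 25 promoters of the amino acid genes, against 0.475%.

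Targets of the oxidative stress factor NRF2 fell. Of 24 tested 0 rose and 15 fell (11, 14, 8 and 10 without a library), with a median of -1.24. Cbr3, a carbonyl reductase, fell from 328 and 194 to 5.42 and 9.88 CPM, -5.08 ± 0.42 on the log2 scale (SE, adjusted p = 4.84e-05). Srxn1, which repairs oxidised peroxiredoxin, fell from 857 and 648 to 81.8 and 103 CPM. Slc7a11, the cystine transporter that feeds glutathione synthesis, fell from 119 and 31.8 to 2.12 and 0.88 CPM, and its control libraries differed more from each other than those of Srxn1. Gstm1, a glutathione transferase with 23.1% shared sequence, was at 2880 and 3510 against 722 and 1290 CPM. Its log2 fold change of -1.66 (adjusted p = 0.0152) was -1.30 (adjusted p = 0.179) without shRictor replicate 1.

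Of 22 p53 targets 0 rose and 14 fell (6, 11, 7 and 9 without a library), with a median of -1.07. Cdkn1a, the p21 inhibitor of cyclin-dependent kinases, fell from 111 and 61.3 to 5.18 and 8.32 CPM, -3.66 ± 0.367 on the log2 scale (SE, adjusted p = 0.000116). This inhibitor of division thus fell in the same libraries as the division genes. Phlda3, a repressor of AKT, fell from 34.7 and 32.8 to 5.42 and 5.67 CPM. Tnfrsf10b, a death receptor, fell from 13.1 and 13.7 to 1.65 and 2.64 CPM. The same direction held for Psrc1, a spindle protein, at 19.1 and 11.3 against 0.589 and 1.66 CPM. Of 28 targets of the stress factors ATF4 and CHOP, 2 rose (1, 1, 1 and 1) and 7 fell (5, 9, 6 and 6), with a median of -0.50, against 1 and 16 under total count scaling. Psat1, an enzyme of serine synthesis, fell from 8.26 and 7.36 to 1.53 and 1.37 CPM. Mthfd2, a mitochondrial folate enzyme, fell from 6.16 and 7.36 to 1.77 and 1.96 CPM. Ddit3, which encodes CHOP, was at 17.0 and 14.8 against 7.18 and 13.1 CPM and was not called (adjusted p = 0.159), but was called lower under total count scaling (-1.05, adjusted p = 0.0298).

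Few chaperone and protein turnover genes were called. Of 41 endoplasmic reticulum chaperones and XBP1 or ATF6 targets, 2 rose (0, 3, 1 and 0 without a library) and 2 fell (2, 1, 2 and 0), with a median of 0.17, or -0.22 under total count scaling, where 0 rose and 3 fell. Hspa5, the BiP chaperone, stood at 403 and 767 against 555 and 536 CPM and its groups overlapped. Dnajb9, its cochaperone and the target of the other hairpin, was at 40.4 and 38.8 against 61.1 and 43.8 CPM (adjusted p = 0.271). In the shDnajb9 comparison 15 of the 41 rose, with a median of 0.70. Of 31 proteasome subunits 0 rose and 0 fell, with a median of -0.01, against 11 higher under shDnajb9. Scaled by total count, 4 of the 31 were called lower, with a median of -0.41. Of 20 cytosolic heat shock genes 0 rose and 1 fell, Hsp90aa1, which shares 58.5% of its sequence and lost its call without each of the 4 libraries in turn, at adjusted p-values of 0.0537, 0.176, 0.13 and 0.262. Whether these lists differ between the hairpins was not tested as lists, and no member of the 3 was called in the difference of the responses.

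The interferon genes that were called were lower. Of 32 genes of the type I interferon response, 0 rose and 5 fell (2, 4, 0 and 2 without a library), with a median of -0.52. By total count scaling 18 fell, with a median of -0.92, and with the length and GC correction 9 fell. Mx1, an antiviral GTPase, stood at 23.6 and 24.5 against 8.83 and 10.6 CPM, a log2 fold change of -1.31 (adjusted p = 0.00692), and -1.18 (adjusted p = 0.068) without shRictor replicate 1. Under shDnajb9 15 of the 32 rose, and 0 were called in the difference of the responses. Of 29 genes of the interferon gamma response and antigen presentation, 0 rose and 7 fell (10, 3, 3 and 4), with a median of -0.48, or 13 lower and -0.85 under total count scaling. H2-Aa, a chain of class II molecules, stood at 179 and 371 against 73.0 and 77.4 CPM, and its log2 fold change of -1.87 was -1.23 without lacZ2 replicate 2. H2-Eb1, another class II chain, was at 139 and 324 against 58.3 and 62.7 CPM, and its log2 fold change of -1.94 was -1.19 without that library. In both genes the larger control value was that of lacZ2 replicate 2.

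Marker lists placed these changes beside the cell types of liver. Of 16 general hepatocyte markers 7 rose (3, 7, 2 and 5 without a library) and 0 fell, with a median of 1.13. Of 13 periportal markers 8 rose (4, 7, 7 and 4) and 0 fell, against 6 and 1 under total count scaling, and of 15 pericentral markers 6 rose (1, 8, 3 and 1) and 0 fell, against 2 and 0 under that scaling and 10 and 0 with no low-count filter. Markers of both zones of the lobule were among the genes that rose. Hpd, a tyrosine-degrading enzyme of hepatocytes, rose from 165 and 461 to 2090 and 1850 CPM, 2.66 ± 0.479 on the log2 scale (SE, adjusted p = 0.0024). Asl, the argininosuccinate lyase of periportal cells, rose from 180 and 222 to 726 and 790 CPM. Cyp2e1, the ethanol-oxidising P450 of pericentral cells, rose from 177 and 1030 to 4390 and 3670 CPM, a log2 fold change of 2.74 that was 4.53 without lacZ2 replicate 2. Alb, albumin, was at 12000 and 28000 against 26500 and 37000 CPM and its groups overlapped.

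Among markers of other liver cells more genes fell than rose. Of 15 Kupffer cell and macrophage markers, 0 rose and 6 fell (4, 1, 2 and 0 without a library), with a median of -0.83, and their summed level was 2097 and 2417 CPM in the control and 1274 and 1431 CPM in the hairpin libraries. Cd68, a lysosomal protein of macrophages, was at 50.2 and 52.6 against 26.1 and 26.5 CPM, a log2 fold change of -0.97 (adjusted p = 0.00937), and lost its call without shRictor replicate 1 (-0.95, adjusted p = 0.0736) and shRictor replicate 2 (-0.97, adjusted p = 0.0648). These markers moved with the interferon, class II and lipid droplet genes above, and their part in those results was not tested. Of 15 T and natural killer cell markers 3 fell (4, 0, 1 and 1, and 5 under total count scaling), with summed levels of 65.01 and 108.8 against 52.15 and 46.57 CPM. Of 7 neutrophil markers 1 fell (0, 2, 0 and 0), and of 4 B and plasma cell markers 0 did, with Ly6g, Elane, S100a8, Ighm and Igkc below the filter or not listed. Of 15 endothelial markers 1 rose (0, 0, 0 and 0, and 0 under total count scaling) and the median was 0.02. Of 19 stellate cell and fibroblast markers 1 rose and 4 fell (2, 6, 3 and 3, and 8 under total count scaling), among them Col3a1, a fibrillar collagen, from 216 and 229 to 65.7 and 81.6 CPM, while Ecm1, an extracellular matrix protein, rose from 24.3 and 31.0 to 98.7 and 75.6 CPM. Of 9 cholangiocyte and progenitor markers 3 fell (1, 3, 1 and 1), and Ly6d, described above, carried most of their summed level in lacZ2, which was 522 and 329.3 CPM against 66.99 and 89.22 CPM in shRictor. Of 5 erythroid markers 2 rose (1, 2, 1 and 2) and 1 fell (0, 2, 0 and 1), against 2 and 2 under total count scaling, and of 3 adipocyte markers 1 fell.

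**Figure D5:**
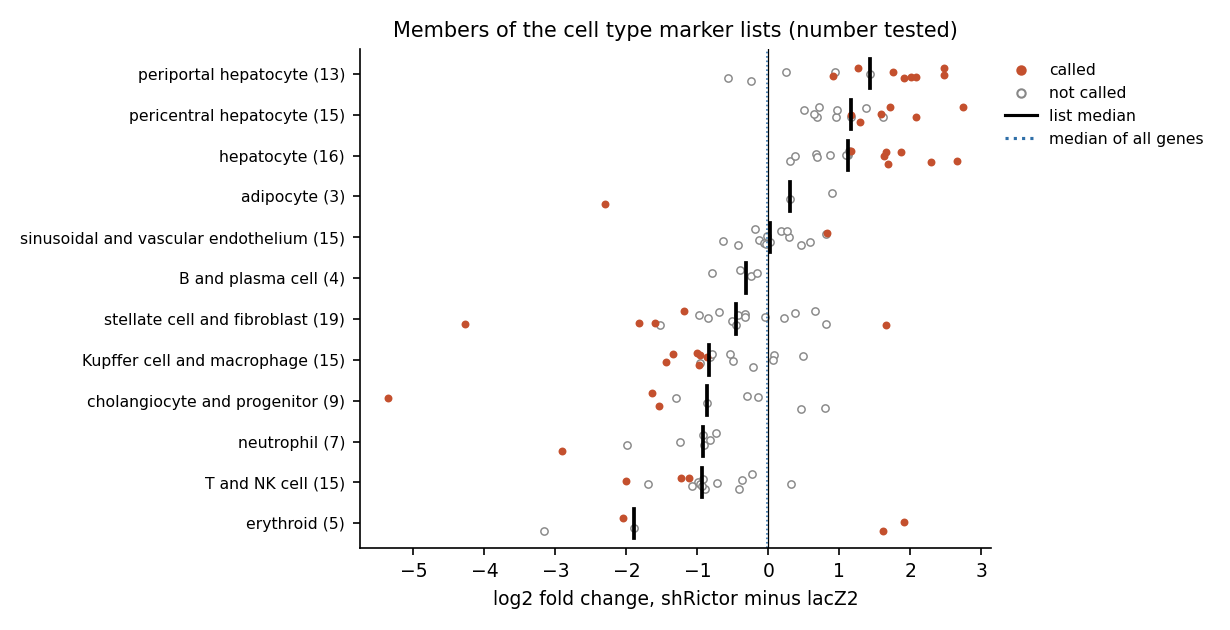
Each row is a cell type marker list with the number of members tested, and each point is a member's log2 fold change of shRictor minus lacZ2, filled where the gene was called. Black bars mark list medians, which run from -1.89 for 5 erythroid markers to 1.43 for 13 periportal hepatocyte markers, with endothelium at 0.02.

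The calls were then set beside the shDnajb9 comparison, which has its own controls and younger mice. Of the 2508 genes called here, 2407 had the same sign under shDnajb9 and 101 the opposite sign. The share with the same sign over all genes tested was not worked out. The 1516 genes called in the same direction in both were 60.4% of the calls here and 45.6% of the 3325 calls there. In opposite directions 8 were called. Of all genes tested, 24.2% were called under shDnajb9 in either direction. Called higher and lower there were 2 and 4 insulin pathway genes and 6 and 1 lipogenic genes. The counts were 16 and 0 for cholesterol, 11 and 2 for bile acid and 16 and 1 for growth hormone genes. They were 18 and 0 for amino acid genes and 2 and 15 for NRF2 targets. Deptor (edgeR, adjusted p = 0.0442), Irs2 (0.0318) and G6pc (0.00749) were also called higher under shDnajb9, while Insr (0.809) and Foxo1 (0.253) were not called. Dnajb9 itself had a log2 fold change of -0.70 there (edgeR, adjusted p = 0.056), so neither hairpin's target was called in its own comparison. In the test of the difference between the responses 1 of 13767 genes was called, 0.00726%, by edgeR, while 1495 had an unadjusted p under 0.05, and DESeq2 called 45. That gene was Slc17a8, a vesicular glutamate transporter on chromosome 10, at 31.8 and 39.5 CPM with the control virus and 79.3 and 88.4 CPM with the hairpin. It rose by 1.23 on the log2 scale here, fell by 1.73 under shDnajb9, and the responses differed by 2.97 (adjusted p = 0.0085). The call of the difference was made in fits without lacZ2 replicate 2, shRictor replicate 1 or shRictor replicate 2 and lost without lacZ2 replicate 1 (2.83, adjusted p = 0.163).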

How the data were processed

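RNA was extracted with Trizol, treated with DNase I and depleted of ribosomal RNA, per the labels' protocols. The authors deposited 1 table of raw counts per library, 1 count per gene symbol, made with HTSeq after trimming with cutadapt on mm10, per the submitters' processing notes. The aligner, versions, gene annotation and strand setting were not given in the sources used here, so a count can include reads of overlapping or antisense genes. HTSeq's unassigned classes were left out of library sizes. Counting error is small beside replicate spread at these depths, and low genes are the least precise.

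Counts of all 8 libraries were fitted in R 4.3.3 with edgeR 4.0.16 (filterByExpr with a minimum count of 10, TMM scaling, 4 group means, robust quasi-likelihood F test), which tested 13767 of 24062 entries and left out 10295. The fit had 4 residual degrees of freedom and a common biological coefficient of variation of 0.209. A call is a Benjamini-Hochberg adjusted p under 0.05 over all genes tested. CPM values are TMM-scaled and n is 2 libraries a group. An exact permutation test over 2 libraries a group cannot reach 0.05. The script was tested on simulated data with known changes. Symbols were matched to GENCODE M21 on the mm10 assembly (98.3% of them, 915 through an older symbol) for position, the share of 50-base stretches found in another gene (uncertain at 20% or more) and exon overlap. In all, 12 promoter motifs were searched.

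Named genes were a panel of insulin, mTOR and chaperone genes, the 12 called genes of smallest adjusted p in each direction (average log2 CPM of 1 or more, libraries not overlapping), and in each list up to 4 called members of smallest p and the member of highest CPM. Ddx3y, Ghr, Igf1, Top2a, Kif11, Mcm6 and the genes of the closing section fall outside that rule and were chosen after values were seen. A few genes that the rule selects are not reported here. The members and lists were chosen with earlier results of these data known. Alternatives were other scalings, filters, tools (DESeq2 1.42.0, limma 3.58.1), thresholds, a replicate block and fits without 1 library.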

Additional observations from a re-analysis of the deposited data

Results flagged for a closer look

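Slc17a8, the vesicular glutamate transporter described above, was the single gene that edgeR called in the 8-library test of the difference itself. Its responses to the 2 hairpins differed by 2.97 on the log2 scale. DESeq2 called 45 genes, and the edgeR call of Slc17a8 was lost without lacZ2 replicate 1 (2.83). Both shRictor libraries were above both lacZ2 libraries, and under shDnajb9 the fold change had the opposite sign.

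The share of HTSeq entries without a unique alignment, a class outside the gene counts, was 32.69% in shRictor replicate 1 and 26.72% in shRictor replicate 2, above the 24.59% and 24.23% of the control libraries. Genes with near-identical copies, such as the Mup cluster, lose reads to this class. Its part in their values was not tested.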

How the results depend on the processing

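Total count scaling changed the 1006 higher and 1502 lower calls to 436 and 2810, and a test against a 1.5-fold change to 375 and 745. Leaving out 1 library gave 314 to 825 higher and 684 to 1171 lower calls. Leaving out lacZ2 replicate 1 and shDnajb9 replicate 1 together, an alternative chosen after seeing the data, gave 619 higher and 1161 lower. No call turned direction in any alternative. The 1 call for the difference of the responses became 395 with no low-count filter, 45 with DESeq2, 4 with a length and GC correction (chosen after seeing the data) and 0 without lacZ2 replicate 1 and shDnajb9 replicate 1 (776 at an unadjusted p under 0.05 in edgeR), and it ranged from 0 (without lacZ2 replicate 1, with 1119 at that unadjusted p) to 5 without 1 library. With the replicate number as a block the calls were 981 higher and 1489 lower, and 3 for the difference. Across genes, deviations from the group means of same-numbered lacZ2 and shRictor libraries correlated at -0.0321. Other pairs of groups gave -0.328 (lacZ1 with shRictor) to 0.322 (shDnajb9 with shRictor). With 1 difference a group, these values cannot show whether the numbers pair the libraries. Rictor was not called in any alternative. At least 1 count of calls moved by over 1.5 times in 22 of the 38 gene lists under total count scaling, in 15 with no low-count filter, in 15 with the length and GC correction, in 8 with DESeq2, in 3 with the replicate block and in 2 with limma-voom. Of the 181 genes that the naming rule selects and that are reported or summarised here, 143 were called, and 91 of these kept their call without each of the 4 libraries in turn. Genes not called changed sign as follows, and a bracket holds the opposite extreme among the fits without 1 library. Under total count scaling Adrb3 was -0.11, C3 -0.02, H2-K1 -0.13, Hspa8 -0.16, Igfbp1 -0.21, Irs1 -0.20, Mapkap1 -0.07, Mtor -0.30, Psmd2 -0.26 and Stab1 -0.23. Without lacZ2 replicate 1, alone or with shDnajb9 replicate 1, C3 was -0.02 (0.93), H2-K1 -0.27 (1.07), Hspa8 -0.02 (0.56) and Psmd2 -0.24 (0.63). Without lacZ2 replicate 2 Hspa5 was 0.45 (-0.49), Mlst8 0.03 (-0.65) and Pparg 0.24 (-0.33). Without shRictor replicate 2 C3 was -0.32, Igfbp1 -0.43 (0.63), Irs1 -0.35 (0.63), Mtor -0.80 (0.68), Pparg 0.04 and Rptor -0.08 (0.90). Mtor was -0.09 in limma-voom and -0.01 with the replicate block. The cause of these changes was not tested. Depth limits genes near the filter. For Rictor the SE was 0.281 in the 8-library fit, and whether more than 2 libraries a group would change its call was not tested.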

Other observations

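Outside the lists, several genes of fetal or injured liver were lower in shRictor, and these were picked after values were seen, so no test is given. H19, the imprinted RNA of fetal liver, stood at 483 and 38.7 CPM with the control virus against 0.942 and 0.978 CPM with the hairpin, so that its control libraries differed widely from each other and still exceeded both shRictor libraries. Lgals3, galectin 3 of macrophages and injured epithelium, stood at 111 and 74.5 CPM against 18.5 and 20.3 CPM. Anxa2, an annexin of the same settings, stood at 104 and 69.0 CPM against 17.1 and 14.4 CPM. Gpc3, a glypican of fetal liver, had 48 and 16 counts in lacZ2 and 0 and 2 counts in shRictor. Among other genes of this kind, Afp and Spp1 were lower with only a narrow gap between the nearest libraries of the groups, and Mt1 was higher. Afp, alpha-fetoprotein, was at 11.3 and 4.99 against 3.41 and 4.79 CPM, Spp1, osteopontin, at 50.6 and 104 against 34.7 and 50.4 CPM, and Mt1, a metallothionein, at 278 and 219 against 453 and 300.2 CPM.

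In the other direction, Moxd1, a monooxygenase-like protein, had 0 and 1 counts in lacZ2 and 162 and 608 counts in shRictor. It had 9 and 3 counts in lacZ1 and 61 and 1215 counts in shDnajb9, so its level differed most between replicates of the hairpin groups.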
